A study of Mus musculus with 70 samples.

Results

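A set of 10 neuropeptide genes of the mouse cortex is described here across the brain samples of a study of the 2 isoforms of Capicua, a transcriptional repressor encoded by Cic. The 10 genes, of 50789 in the count table, are Npy, Sst, Cort, Vip, Cck, Tac1, Tac2, Penk, Pdyn and Crh. They were taken by symbol, and the set was chosen by a measured value, since it was proposed because Npy differed from wild type in opposite directions in the cortex and the cerebellum of mice without the long isoform. Those Npy values are therefore given as a description with no test, and nothing is supported with them.

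Sequenced RNA came from 3 genotypes: Cic-S-KO, without the short isoform, Cic-L-KO, without the long one, and WT littermates, which the labels pool over both lines without naming the line of each. Cortex and cerebellum were taken at 12 weeks of age, with 8 WT, 7 Cic-S-KO and 8 Cic-L-KO samples in each region, and lung at postnatal day 6 with 8 samples per genotype. The labels do not state that the samples came from separate animals, so the p-values measure the spread between these samples. All brain samples carried one batch label, and lung carried another.

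Neuropeptides are short signalling peptides cut from larger precursor proteins, stored in dense-core vesicles and released by strong or repeated firing. They act on G-protein-coupled receptors over longer times and distances than the fast transmitters. In the cortex most of them are made by inhibitory (GABA) neurons, and their genes serve as markers of the classes of those neurons: Sst and Cort for cells derived from the medial ganglionic eminence, Vip for cells derived from the caudal ganglionic eminence, and Npy in cells of both origins. Tac1, Penk and Pdyn are also the precursor genes of the striatal projection neurons, which lie directly beneath the cortex.

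Sequences next to the start sites are shown because some of these genes are textbook targets of the cyclic AMP response element (CRE), TGACGTCA, and because Capicua binds the octamers TGAATGAA and TGAATGGA. RefSeq windows of 300 bases around the start site (GRCm38.p6) were at hand for 8 of the 10 genes, all but Penk and Crh. Both strands were searched. The stretches printed for Sst and Tac1 lie inside the gene span of the GENCODE annotation, and the others lie upstream of it. Capitals mark TGACG or its reverse complement CGTCA, the core of the CRE, and the full CRE contains both in overlap.
Npy, chr6:49822590-49822709, plus strand: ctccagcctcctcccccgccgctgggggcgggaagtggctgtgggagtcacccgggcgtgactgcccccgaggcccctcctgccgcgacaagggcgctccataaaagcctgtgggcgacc
Sst, chr16:23890872-23890901, minus strand: ctccttggcTGACGTCAgagagagagttta
Cort, chr4:149126764-149126793, minus strand: ctccggcttgtgCGTCAccgcgtgagtgtg
Vip, chr10:5639127-5639156, plus strand: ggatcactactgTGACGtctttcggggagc
Cck, chr9:121495724-121495753, minus strand: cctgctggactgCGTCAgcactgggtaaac
Tac1, chr6:7555006-7555035, plus strand: gctctacaggctCGTCAcgcctgagataaa
The full CRE was in the window of Sst alone among the 8 genes, and it is in 1.79% of 32851 promoter windows of the same length. This core was in the windows of 5 of the 8 genes (Sst, Cort, Vip, Cck and Tac1), against 20.8% of all windows. The Npy window held neither. Neither Capicua octamer was found in a window of the 8 genes; over all windows TGAATGAA was in 1.30% and TGAATGGA in 1.21%. These are matches of letters, and they were not tested against the expression values.

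Values are CPM, read counts scaled to a common library size and normalised by the trimmed mean of M-values (TMM) over the 46 brain samples, whose totals ranged from 20440799 to 32548951 reads. Markers of the labelled tissues were present: 7 of 7 excitatory cortical genes were higher in WT cortex than in WT cerebellum and 8 of 8 cerebellar genes lower. Cic itself was 166.6 ± 9.02 CPM in WT cortex, 257.7 ± 7.77 in Cic-S-KO cortex and 305.6 ± 17.4 in Cic-L-KO cortex (SD, n = 8, 7 and 8), and a count per gene does not separate its isoforms. The summed level of 10 striatal genes (Drd1, Drd2, Adora2a, Ppp1r1b and others) varied between the cortex samples of each genotype. It ranged from 217.5 to 635.2 CPM in WT cortex (median 344.3) and from 215.6 to 650.9 in Cic-L-KO cortex (median 367.7). In Cic-S-KO cortex it ranged from 228.5 to 761.5 CPM (median 665.3). This sum is not particular to the striatum, since it was 240.9 to 306.9 CPM in WT cerebellum. For 3 choroid plexus genes the sum was 19.05 to 585.3 CPM in WT cortex (median 24.99). It was 7.705 to 609.0 in Cic-S-KO cortex (median 16.25) and 12.32 to 1259 in Cic-L-KO cortex (median 396.7). Of 5 thalamic genes 3 rose and 1 fell in Cic-L-KO cortex (edgeR), where 43.2% of all genes passed. Cic-L-KO cortex replicate 5 was the highest in a hippocampal list. The part of these tissues in the peptide differences was not tested. In the cerebellum the summed level of 8 brainstem genes ranged from 0.983 to 35.1 CPM. By mean log2 CPM it was above 0 in 4 libraries, Cic-S-KO replicate 6, Cic-L-KO replicates 3 and 4 and WT replicate 1. Some cerebellar values are also given without these 4. Those of Penk and of the genes outside the set are given with all libraries only.

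In WT cortex the level per kilobase of exon ran from Sst at 263.3 ± 9.78 CPM per kb (SD, n = 8), Cck at 189.1 ± 16.6 and Npy at 110.4 ± 8.26 through Penk at 45.9 ± 23.6, Vip at 15 ± 1.55 and Pdyn at 11.5 ± 3.27 to Cort at 9.26 ± 1.52, Crh at 7.27 ± 0.671, Tac1 at 5.99 ± 2.64 and Tac2 at 4.39 ± 0.713. From Vip down to Tac2 in that order, each gene differed from its neighbour by less than the sum of their standard deviations. Of the 10 genes 9 were higher in WT cortex than in WT cerebellum and 1 did not pass, where 73.5% of 18032 genes passed and 35.4% were higher in the cortex (edgeR quasi-likelihood test, Benjamini-Hochberg adjusted p under 0.05). The median log2 difference of the 10 genes was 4.93, beside -0.04 over all genes tested.

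The regional differences were smallest for the genes that the cerebellum also expresses. Cck, one of the most abundant neuropeptide transcripts of the cortex, was 246.7 ± 21.7 CPM in WT cortex and 29.0 ± 3.66 in WT cerebellum (log2 difference 3.09, SE 0.081, adjusted p = 2.13e-33 by edgeR). Npy was 62.5 ± 4.68 CPM in WT cortex and 8.20 ± 1.41 in WT cerebellum (log2 difference 2.93, SE 0.1005, adjusted p = 4.75e-29 by edgeR). Penk, the precursor of the enkephalins, was the exception at 74.9 ± 38.6 CPM in WT cortex and 60.1 ± 3.47 in WT cerebellum (log2 difference 0.32, SE 0.286, adjusted p = 0.320 by edgeR). Sst reached 3.63 ± 3.13 CPM in WT cerebellum, and Tac1, Tac2, Vip, Pdyn, Crh and Cort each averaged under 1 CPM there. Vip had 0 reads in 4 of the 8 WT cerebellum samples.

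**Figure D1:**
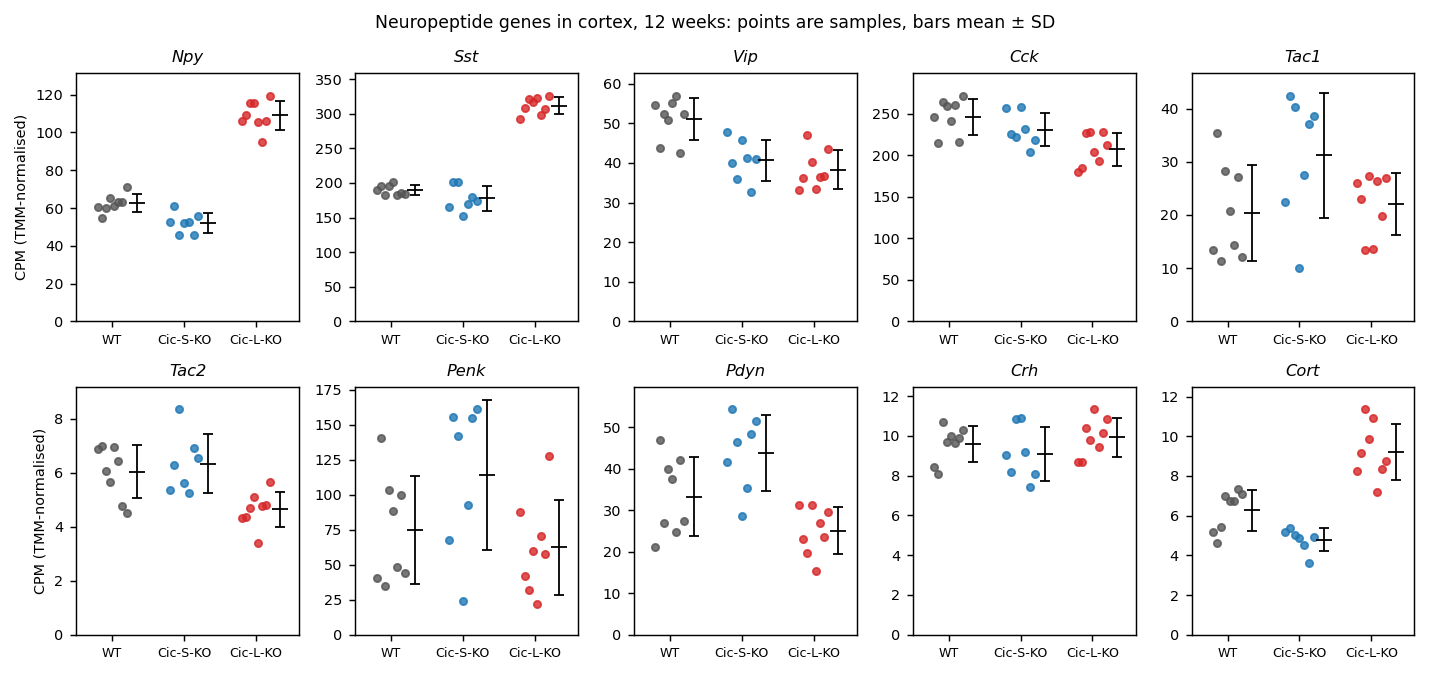
Level of each of the 10 genes in CPM (vertical axes, from 0) in 8 WT, 7 Cic-S-KO and 8 Cic-L-KO cortex samples; each point is a sample, and the bars give the mean and SD. Npy and Sst in Cic-L-KO lie above every other sample, while Tac1, Penk and Pdyn spread widely within each genotype.

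Npy encodes neuropeptide Y, which damps transmitter release through its Y receptors. Its gene (ENSMUSG00000029819.6) is on the plus strand of chromosome 6, at 49822710 to 49829507 (GRCm38, as all positions here). In the cortex its level ranged from 54.9 to 71.2 CPM in WT (median 62.1), from 45.8 to 61.0 in Cic-S-KO (median 52.7) and from 95.2 to 119.4 in Cic-L-KO (median 107.8). All 8 Cic-L-KO cortex samples lay above all 15 others, and 5 of the 7 Cic-S-KO samples lay below every WT sample. The mean was 109.1 ± 7.67 CPM (n = 8) in Cic-L-KO cortex, a log2 difference from WT of 0.81 (SE 0.054), for which no test is given.

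The order of the genotypes was the other way round in the cerebellum. There Npy ranged from 6.28 to 10.1 CPM in WT (median 8.26), from 9.23 to 14.99 in Cic-S-KO (median 10.3) and from 1.56 to 3.95 in Cic-L-KO (median 2.65). Every Cic-L-KO cerebellum sample lay below every WT and Cic-S-KO sample, and 5 of the 7 Cic-S-KO samples lay above every WT sample. The Cic-L-KO mean of 2.81 ± 0.748 CPM (n = 8) corresponded to a log2 difference from WT of -1.54 (SE 0.145), again with no test. Counts behind these values were 41 to 105 reads per Cic-L-KO cerebellum sample and 160 to 301 per WT sample.

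The Cic-S-KO values of Npy were not used to choose the genes, although they share the WT samples with the values that were. Npy fell in Cic-S-KO cortex by 0.25 on the log2 scale (SE 0.057, adjusted p = 0.00872 by edgeR) and rose in Cic-S-KO cerebellum by 0.46 (SE 0.138, adjusted p = 0.0398 by edgeR). The 2 differences themselves differed by -0.71 (SE 0.142, adjusted p = 0.00311 by edgeR). Npy was the 1 gene of the 10 to pass this interaction test, which 4.50% of 18032 genes passed. The cerebellar rise lost its call when no low-count filter was applied (0.45, adjusted p = 0.0859 by edgeR) and without the 4 libraries above 0 in the brainstem list (0.43, SE 0.141, adjusted p = 0.0593 by edgeR). The interaction kept its call without those 4 libraries (-0.68, SE 0.141, adjusted p = 0.00379 by edgeR). Cic-L-KO differed from WT by 2.35 (SE 0.149) more in the cortex than in the cerebellum, given without a test. In bulk tissue, fewer cells making a peptide and less RNA per cell cannot be told apart.

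Npy was also set beside the striatal and brainstem lists. Over the 23 cortex samples, deviations of Npy from its genotype mean had a Pearson r of -0.079 with those of the striatal list (permutation p = 0.745; Spearman rho 0.074, p = 0.744; 17 relations computed, adjusted p = 0.745), and r was -0.145 without the 2 samples farthest from the median. Over the 23 cerebellum samples, r with the brainstem list was 0.131 (permutation p = 0.608, adjusted p = 0.646; rho -0.013, p = 0.958), and 0.018 without the 2 farthest. With the striatal list as a covariate the Cic-S-KO cortex difference was -0.25 (SE 0.063, adjusted p = 0.0364 by edgeR).

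**Figure D2:**
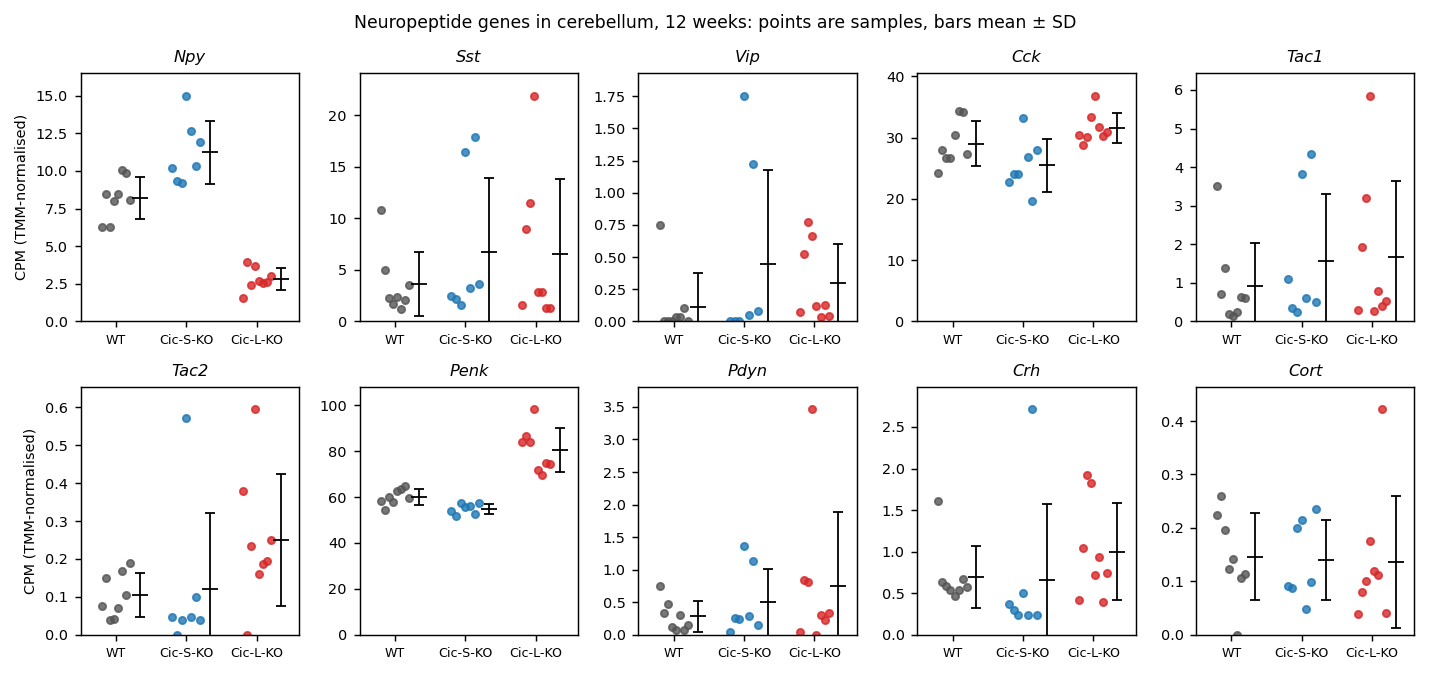
Level of each of the 10 genes in CPM (vertical axes, from 0) in 8 WT, 7 Cic-S-KO and 8 Cic-L-KO cerebellum samples; each point is a sample, and the bars give the mean and SD. Npy in Cic-L-KO (1.56 to 3.95 CPM) lies below and Penk in Cic-L-KO (69.7 to 98.3 CPM) above all other samples; Sst, Tac1, Vip, Pdyn and Crh are low with some high samples.

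Sst encodes somatostatin, the peptide of inhibitory neurons that contact the dendrites of pyramidal cells (ENSMUSG00000004366.4, chromosome 16, 23889573 to 23890958, minus strand). Its cortical level ranged from 182.8 to 200.8 CPM in WT (median 187.7), from 151.6 to 201.9 in Cic-S-KO (median 174.2) and from 292.6 to 325.9 in Cic-L-KO (median 312.4). The Cic-L-KO samples formed a separate group, with the lowest of them above the highest of both other genotypes. Sst rose in Cic-L-KO cortex by 0.72 on the log2 scale (SE 0.045, adjusted p = 6.27e-14 by edgeR). In Cic-S-KO cortex the difference from WT was -0.09 (SE 0.046, adjusted p = 0.243 by edgeR).

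Cort encodes cortistatin, which binds the somatostatin receptors (ENSMUSG00000028971.4, chromosome 4, 149125034 to 149126763, minus strand). In the cortex it ranged from 4.62 to 7.36 CPM in WT (median 6.75), from 3.62 to 5.39 in Cic-S-KO (median 4.95) and from 7.22 to 11.4 in Cic-L-KO (median 8.94). Of the 8 Cic-L-KO samples, 7 lay above every WT sample, and the Cic-S-KO and Cic-L-KO samples did not overlap. Cort rose in Cic-L-KO cortex by 0.57 (log2; SE 0.105, adjusted p = 6.43e-05 by edgeR) and fell in Cic-S-KO cortex by 0.38 (SE 0.113, adjusted p = 0.0384 by edgeR). The Cic-S-KO call on Cort was lost with the striatal list as a covariate (-0.34, adjusted p = 0.134 by edgeR).

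Both genes were low in the cerebellum. Cort averaged 0.146 ± 0.081 CPM in WT cerebellum (n = 8) and did not pass the filter on low counts there. Sst ranged from 1.21 to 10.8 CPM in WT, from 1.60 to 17.9 in Cic-S-KO and from 1.27 to 21.9 in Cic-L-KO cerebellum, with the groups overlapping over most of their range. Its difference from WT was 0.86 (SE 0.689, adjusted p = 0.412 by edgeR) in Cic-L-KO cerebellum, and 0.27 (SE 0.610, adjusted p = 0.812) without the 4 libraries above 0 in the brainstem list. Deviations of Sst in the cerebellum rose with those of the brainstem list, with r = 0.807 over 23 samples (permutation p = 4e-05, adjusted p = 0.000113; rho 0.714, p = 0.00065) and 0.703 without the 2 farthest samples. Crh (r = 0.853, adjusted permutation p = 3.4e-05; rho 0.752, 0.000425), Tac1 (r = 0.818, 3.4e-05; rho 0.747, 0.000544) and Pdyn (r = 0.749, 0.000656; rho 0.687, 0.00277) did so too, with r of 0.815, 0.735 and 0.62 without the 2 farthest.

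Vip encodes vasoactive intestinal peptide, made by inhibitory neurons that mainly contact other inhibitory neurons (ENSMUSG00000019772.5, chromosome 10, 5639218 to 5647617, plus strand). Its cortical level ranged from 42.4 to 57.0 CPM in WT (median 52.3), from 32.7 to 47.8 in Cic-S-KO (median 41.1) and from 33.3 to 47.0 in Cic-L-KO (median 36.6). Both knockout groups overlapped with WT, with 5 of 7 Cic-S-KO and 6 of 8 Cic-L-KO samples below the lowest WT sample. Vip fell in both, by 0.32 on the log2 scale in Cic-S-KO (SE 0.083, adjusted p = 0.0212 by edgeR) and by 0.41 in Cic-L-KO (SE 0.080, adjusted p = 2.00e-04 by edgeR). The Cic-S-KO call on Vip was lost with the striatal list as a covariate (-0.25, adjusted p = 0.102 by edgeR). The knockouts differed from each other by 0.08 (SE 0.083, adjusted p = 0.478 by edgeR).

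Cck encodes cholecystokinin, made in the cortex by excitatory neurons as well as by a class of inhibitory basket cells (ENSMUSG00000032532.7, chromosome 9, 121489824 to 121495694, minus strand). It ranged from 214.5 to 271.7 CPM in WT cortex (median 253.0), from 204.6 to 258.2 in Cic-S-KO (median 225.2) and from 180.1 to 228.3 in Cic-L-KO (median 208.3). The 3 groups overlapped, and 5 of the 8 Cic-L-KO samples were below every WT sample. Cck fell in Cic-L-KO cortex by 0.24 (log2; SE 0.060, adjusted p = 0.00173 by edgeR), and the Cic-S-KO difference was -0.09 (SE 0.062, adjusted p = 0.413 by edgeR). Of 7 excitatory cortical markers in the same Cic-L-KO samples 1 rose (Cux2, 0.18) and 3 fell (edgeR): the vesicular glutamate transporter gene Slc17a7 by 0.38 (adjusted p = 4.45e-10), Tbr1 by 0.45 (adjusted p = 6.68e-09) and Rorb by 0.47 (adjusted p = 6.55e-05). Their part in the Cck difference was not tested. In the cerebellum its level was 29.0 ± 3.66 CPM in WT, 25.5 ± 4.36 for Cic-S-KO and 31.6 ± 2.51 for Cic-L-KO (SD, n = 8, 7 and 8), and neither knockout differed from WT by edgeR (adjusted p = 0.184 and 0.276). The Cic-L-KO difference of Cck itself differed between cortex and cerebellum by -0.37 (SE 0.107, adjusted p = 0.00925 by edgeR), a test that 23% of 18032 genes passed.

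Tac2, the precursor of neurokinin B (ENSMUSG00000025400.11, chromosome 10, 127724478 to 127731768, plus strand), was the lower of the tachykinin genes. In the cortex it ranged from 4.52 to 7.01 CPM in WT (median 6.26), from 5.27 to 8.36 in Cic-S-KO (median 6.31) and from 3.38 to 5.67 in Cic-L-KO (median 4.73). The groups overlapped, with 3 of 8 Cic-L-KO samples below every WT sample. Tac2 fell in Cic-L-KO cortex by 0.38 on the log2 scale (SE 0.114, adjusted p = 0.00832 by edgeR). Its interaction value of -1.60 (SE 0.491, adjusted p = 0.0139 by edgeR) rests on cerebellar levels of 0.105 ± 0.058 CPM in WT and 0.250 ± 0.175 in Cic-L-KO (n = 8 each), and it lost its call without the 4 libraries above 0 in the brainstem list (-1.18, adjusted p = 0.124 by edgeR).

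**Figure D3:**
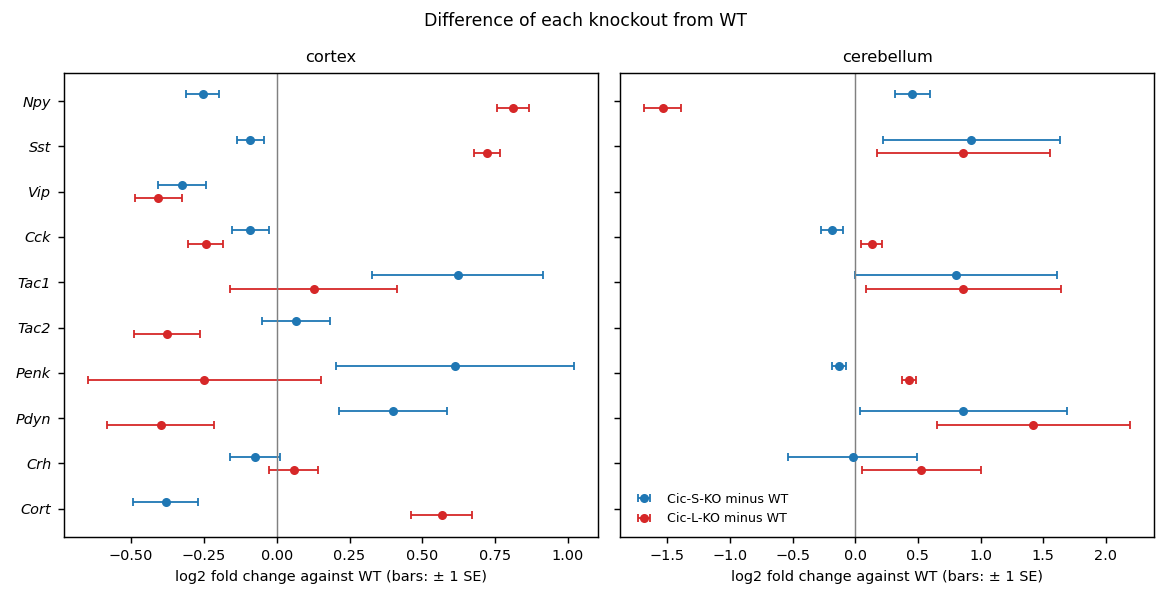
Log2 fold change of each knockout from WT with its standard error (horizontal axes) for the 10 genes in cortex (left) and cerebellum (right); Vip, Tac2 and Cort did not pass the low-count filter in the cerebellum and have no point there. Sst and Cort in Cic-L-KO cortex lie at 0.72 and 0.57, and Penk in Cic-L-KO cerebellum lies at 0.43 with a narrow error.

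Penk, the enkephalin precursor (ENSMUSG00000045573.9, chromosome 4, 4133531 to 4138819, minus strand), passed against WT in Cic-L-KO cerebellum. In the cerebellum it ranged from 54.3 to 65.0 CPM in WT (median 59.6), from 51.8 to 57.4 in Cic-S-KO (median 55.8) and from 69.7 to 98.3 in Cic-L-KO (median 79.3). The lowest Cic-L-KO sample was above the highest WT and Cic-S-KO samples. Penk rose in Cic-L-KO cerebellum by 0.43 (log2; SE 0.054, adjusted p = 3.78e-06 by edgeR), and the Cic-S-KO difference was -0.13 (SE 0.057, adjusted p = 0.166 by edgeR). Its deviations there had an r of 0.195 with the brainstem list (permutation p = 0.467, adjusted p = 0.529; rho 0.030, p = 0.907; -0.071 without the 2 farthest samples). An exon of Penk overlaps A830012C17Rik on the other strand, and the sources used here do not say whether counting used strand; A830012C17Rik had between 0 and 5 reads in every brain sample.

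In the cortex Penk ranged from 34.6 to 140.4 CPM in WT (median 68.4), from 24.3 to 161.3 in Cic-S-KO (median 142.3) and from 22.1 to 127.9 in Cic-L-KO (median 59.0). The spread within each genotype was larger than the difference between genotypes. For Cic-S-KO the difference from WT was 0.61 (SE 0.408, adjusted p = 0.399 by edgeR), and for Cic-L-KO it was -0.25 (SE 0.399, adjusted p = 0.646 by edgeR). The latter did not pass the test between cortex and cerebellum (-0.68, SE 0.404, adjusted p = 0.236 by edgeR).

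Tac1 and Pdyn varied in the same way in the cortex. Tac1, the precursor of substance P and neurokinin A (ENSMUSG00000061762.12, chromosome 6, 7554879 to 7565834, plus strand), ranged from 11.4 to 35.3 CPM in WT (median 17.5), from 10 to 42.4 in Cic-S-KO (median 37.0) and from 13.4 to 27.3 in Cic-L-KO (median 24.5). Pdyn, the dynorphin precursor (ENSMUSG00000027400.11, chromosome 2, 129686565 to 129699844, minus strand), ranged from 21.0 to 46.9 CPM in WT (median 32.5), from 28.6 to 54.4 in Cic-S-KO (median 46.5) and from 15.4 to 31.2 in Cic-L-KO (median 25.2). Neither passed against WT: for Cic-S-KO and Cic-L-KO in that order, the adjusted p was 0.213 and 0.749 for Tac1 and 0.202 and 0.0836 for Pdyn (edgeR). Pdyn was higher in Cic-S-KO cortex than in Cic-L-KO cortex by 0.80 (SE 0.186, adjusted p = 0.00208 by edgeR), with 6 of 7 Cic-S-KO samples above every Cic-L-KO sample.

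These 3 genes followed the striatal list across cortex samples. Deviations from the genotype mean over 23 samples had an r of 0.972 for Penk (rho 0.954), 0.965 for Tac1 (rho 0.941) and 0.923 for Pdyn (rho 0.891). Each permutation p was 1e-05 for both measures, the smallest that the permutations can give, with adjusted p of 3.4e-05 for r and 5.67e-05 for rho over 17 relations. Without the 2 samples farthest from the median of the list, r was 0.961, 0.947 and 0.946. Of the other genes, Cck fell with the list (r = -0.575, adjusted permutation p = 0.013; rho -0.587, 0.00965; r = -0.493 without the 2 farthest). Sst rose with it by r (0.502, adjusted permutation p = 0.0422) but not by rho (0.423, 0.0794), and r was 0.261 without the 2 farthest. Vip (r = -0.469) and Crh (r = -0.472) had an adjusted permutation p of 0.0521 each. With the list as a covariate the Cic-L-KO cortex differences were 0.71 for Sst (adjusted p = 5.31e-15), -0.22 for Cck (adjusted p = 7.34e-04) and -0.38 for Vip (adjusted p = 1.30e-04, all edgeR). The genes and the list were measured in the same libraries, and dissection of the samples was not tested as a source of the variation.

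With the striatal list as a covariate the standard errors of these genes fell and 2 of them passed. Penk then differed in Cic-L-KO cortex from WT by -0.51 (SE 0.102, adjusted p = 4.14e-04 by edgeR) and Pdyn by -0.49 (SE 0.067, adjusted p = 6.31e-07 by edgeR). Without the list these differences were -0.25 for Penk and -0.40 for Pdyn, so the estimates moved as well as the errors. The Cic-S-KO difference of Penk changed sign, from 0.61 to -0.24 (adjusted p = 0.276 by edgeR). The list itself had 0 of 10 genes past the threshold against WT in either knockout. Over all genes 6.53% passed for Cic-S-KO and 43.2% for Cic-L-KO cortex. The median log2 difference of the list was 0.81 for Cic-S-KO cortex and 0.05 for Cic-L-KO cortex. Its mean log2 CPM was 4.54 ± 1.06 in Cic-S-KO, 3.62 ± 1.04 in WT and 3.91 ± 0.746 in Cic-L-KO cortex (SD). The covariate thus varied partly with the Cic-S-KO genotype, and the part of this in the Cic-S-KO calls lost with it was not tested. Its mean in Cic-L-KO cortex was also above that in WT, by less than either SD. The part of this in the Penk and Pdyn calls gained with it was not tested either.

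**Figure D4:**
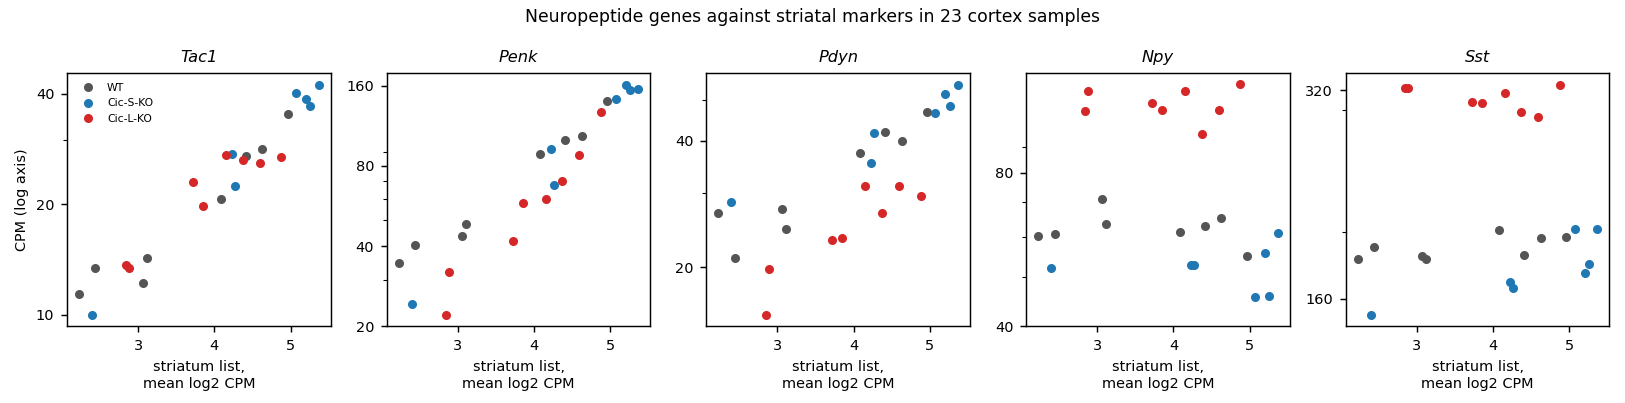
Level of 5 neuropeptide genes in CPM (vertical axes, log scale) against the mean log2 CPM of 10 striatal genes (horizontal axes) in 23 cortex samples, coloured by genotype. Tac1, Penk and Pdyn climb with the striatal list in all genotypes (r 0.965, 0.972 and 0.923 within genotype), while for Npy and Sst the Cic-L-KO samples lie above the overlapping WT and Cic-S-KO samples.

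Crh, the corticotropin-releasing hormone gene (ENSMUSG00000049796.4, chromosome 3, 19693401 to 19695396, minus strand), showed no difference past the threshold in either region. In the cortex it ranged from 8.10 to 10.7 CPM in WT (median 9.79), from 7.42 to 10.9 in Cic-S-KO (median 9.06) and from 8.67 to 11.4 in Cic-L-KO (median 9.98), with all groups overlapping. For Cic-S-KO the difference from WT was -0.07 (SE 0.086, adjusted p = 0.663 by edgeR), and for Cic-L-KO it was 0.06 (SE 0.083, adjusted p = 0.597 by edgeR). In the cerebellum Crh was 0.700 ± 0.373 CPM in WT, 0.657 ± 0.913 for Cic-S-KO and 0.999 ± 0.583 for Cic-L-KO. The Cic-S-KO difference from WT there was -0.02 (adjusted p = 0.988 by edgeR), and -0.84 (SE 0.294, adjusted p = 0.0701 by edgeR) without the 4 libraries above 0 in the brainstem list. Without them Crh was lower in Cic-S-KO cerebellum than in Cic-L-KO cerebellum (log2 difference -1.15, SE 0.298, adjusted p = 0.00928 by edgeR), a call that the full set did not give.

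Counted over the set, 3 of the 10 genes passed in Cic-S-KO cortex against WT, all lower (Npy, Vip and Cort), where 6.53% of 16974 genes passed and 3.70% were lower (edgeR). With the striatal list as a covariate 1 gene passed, Npy. In Cic-L-KO cortex 5 of the 9 genes other than Npy passed, 2 higher (Sst and Cort) and 3 lower (Vip, Cck and Tac2), where 43.2% of genes passed, 21.4% higher and 21.9% lower (edgeR). Because Npy in this contrast chose the set, nothing is read from that count. The median log2 difference was -0.08 for the 10 genes in Cic-S-KO cortex and -0.24 for the 9 others in Cic-L-KO cortex, beside medians of -0.00087 and 0.0114 over all genes.

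In the cerebellum 7 of the 10 genes passed the low-count filter. Npy alone passed in Cic-S-KO, where 8.23% of 16643 genes did, and it missed the threshold without the 4 libraries above 0 in the brainstem list. Of the 6 others, Penk alone passed in Cic-L-KO, where 21.5% of genes did (edgeR). Npy chose the set by its Cic-L-KO values and is not counted among the groups without overlap. Of the others, Cic-L-KO and WT samples did not overlap for Sst in the cortex, beside 13.5% of genes, and for Penk in the cerebellum, beside 3.76%; nothing is read from these counts. For Cic-S-KO against WT the groups overlapped for every gene of the set, beside 0.901% of genes without overlap in the cortex and 1.16% in the cerebellum. Both sets of knockout values use the same WT samples.

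The knockouts were also compared with each other. In the cortex 4 of the 9 genes other than Npy passed, with Sst and Cort lower and Pdyn and Tac2 higher where the short isoform was lacking, while 33.9% of all genes passed (edgeR). The log2 difference of Cic-S-KO from Cic-L-KO was -0.81 for Sst (SE 0.047, adjusted p = 1.15e-14), -0.95 for Cort (SE 0.111, adjusted p = 5.71e-08) and 0.44 for Tac2 (SE 0.117, adjusted p = 0.00371, all edgeR). The Cic-S-KO and Cic-L-KO samples did not overlap for Sst and Cort, beside 10.7% of genes. In the cerebellum the same difference was -0.56 for Penk (SE 0.057, adjusted p = 1.33e-07) and -0.31 for Cck (SE 0.086, adjusted p = 0.0151), where 12.4% of genes passed (edgeR). The groups did not overlap for Penk, beside 2.61% of genes. Without the 4 libraries above 0 in the brainstem list Cck was at -0.26 (adjusted p = 0.0424 by edgeR). The Npy difference was -1.06 in the cortex and 1.99 in the cerebellum, given without a test.

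Other neuropeptide precursors formed a list of 16 genes, of which 9 passed the filter in the cortex. In Cic-L-KO cortex 5 of the 9 rose and 0 fell (edgeR), with a list median of 0.39, where 43.2% of all genes passed and 21.4% rose. They were Grp (gastrin-releasing peptide; 0.95, SE 0.096, adjusted p = 2.37e-09), Adcyap1 (the precursor of PACAP; 0.64, SE 0.069, adjusted p = 8.66e-09), Apln (apelin; 0.63), Cartpt (1.15) and Pnoc (0.28), the last named after its value was seen. In Cic-S-KO cortex, where 6.53% of all genes passed, 2 of the 9 fell and 0 rose (list median 0.04): Grp by 0.63 (SE 0.105, adjusted p = 6.59e-04) and Adcyap1 by 0.39 (SE 0.073, adjusted p = 0.00238 by edgeR).

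Adcyap1 ranged from 20.7 to 28.8 CPM in WT cortex, from 18.0 to 20.6 in Cic-S-KO and from 31.0 to 45.4 in Cic-L-KO, so that the 3 genotypes did not overlap. Over all genes in the cortex 0.901% did not overlap for Cic-S-KO against WT. The share was 13.5% for Cic-L-KO against WT and 10.7% between the knockouts. Grp ranged from 6.36 to 10.9 CPM in WT, from 3.83 to 6.49 in Cic-S-KO and from 14.9 to 18.1 in Cic-L-KO cortex, with Cic-L-KO above all others and Cic-S-KO touching WT. Both had the order of genotypes seen for Npy and Cort in the cortex. In the cerebellum 2 of the 8 genes that passed the filter rose in Cic-L-KO, where 21.5% of all genes passed. They were Pnoc (0.69, adjusted p = 0.00654) and Adcyap1 (0.43, adjusted p = 0.0150 by edgeR). In Cic-S-KO cerebellum 0 of the 8 passed by edgeR, beside 8.23% of all genes. Nothing is read from these counts.

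**Figure D5:**
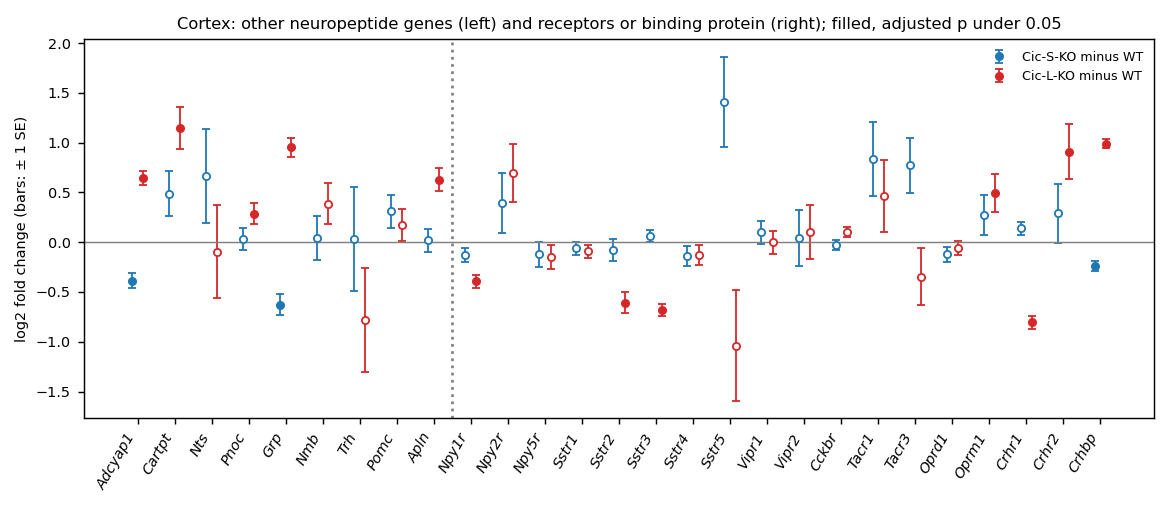
Log2 fold change from WT with its standard error (vertical axis) in the cortex for 9 other neuropeptide genes (left of the dotted line) and 18 genes of receptors or the Crh binding protein (right), in Cic-S-KO and Cic-L-KO; filled points passed an adjusted p of 0.05. Grp, Adcyap1 and Crhbp lie below 0 in Cic-S-KO and above 0 in Cic-L-KO.

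Receptors of the 10 peptides and the Crh binding protein made a list of 21 genes, of which 18 passed the filter in the cortex. In Cic-L-KO cortex 3 rose and 4 fell (list median -0.07), and in Cic-S-KO cortex 0 rose and 1 fell (list median 0.05, edgeR). Over all genes 43.2% and 6.53% passed, so the share of the list that passed was near that of all genes in both. Crhbp, whose product binds and sequesters corticotropin-releasing hormone, ranged from 25.7 to 30.4 CPM in WT, from 21.8 to 25.9 in Cic-S-KO and from 50.8 to 60.1 in Cic-L-KO cortex. It rose in Cic-L-KO by 0.99 (SE 0.047, adjusted p = 1.40e-16) and fell in Cic-S-KO by 0.24 (SE 0.050, adjusted p = 0.00501 by edgeR).

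The 4 receptor genes that fell in Cic-L-KO cortex belong to corticotropin-releasing hormone, somatostatin and neuropeptide Y. Crhr1, the main receptor of corticotropin-releasing hormone, ranged from 23.3 to 27.4 CPM in WT and from 13.9 to 16.0 in Cic-L-KO cortex. These groups did not overlap, beside 13.5% of all genes, and Crhr1 fell by 0.81 (SE 0.063, adjusted p = 1.29e-11 by edgeR). The somatostatin receptor gene Sstr3 fell by 0.68 (SE 0.060, adjusted p = 2.06e-10) and the neuropeptide Y receptor gene Npy1r by 0.39 (SE 0.068, adjusted p = 2.33e-05 by edgeR). Sstr2 also fell, by 0.61, while Crhr2 rose by 0.91 and Oprm1 by 0.49 from WT levels under 2 CPM; these 3 were named after their values were seen. In the cerebellum the Vip receptor gene Vipr1 fell in Cic-L-KO by 0.88 (adjusted p = 4.13e-04) and Sstr3 by 0.33 (adjusted p = 0.00540), and Sstr2 rose by 0.77 (adjusted p = 0.0407 by edgeR). In Cic-S-KO cerebellum Sstr2 rose by 1.08 (adjusted p = 0.0152) and the Vip receptor gene Vipr2 fell by 0.63 (adjusted p = 0.0469 by edgeR). These were 3 and 2 of 17 genes, where 21.5% and 8.23% of all genes passed.

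Markers of the inhibitory neurons were set beside the peptides, and their counts in Cic-L-KO cortex stand beside 43.2% of all genes that passed, 21.4% higher and 21.9% lower. Of 4 general markers, 1 rose in Cic-L-KO cortex (Slc32a1, the vesicular GABA transporter, 0.42, SE 0.122, adjusted p = 0.00848) and 0 passed in Cic-S-KO cortex (edgeR). The GABA-synthesising enzyme gene Gad1 was 429.6 ± 13.6 CPM in WT, 423.1 ± 51.1 for Cic-S-KO and 460.4 ± 27.9 for Cic-L-KO cortex (SD, n = 8, 7 and 8; adjusted p = 0.886 and 0.0990 by edgeR). Of 8 markers of medial eminence classes 3 rose in Cic-L-KO cortex and 0 fell: Nos1 by 0.49, Pvalb by 0.34 and Elfn1 by 0.26 (list median 0.21). Lhx6, which defines those classes, was 23.01 ± 2.22 CPM in WT and 25.7 ± 2.05 in Cic-L-KO cortex (log2 difference 0.17, SE 0.074, adjusted p = 0.0657 by edgeR). Of 10 markers of caudal eminence classes 2 rose and 5 fell (list median -0.23), with the smallest p in Cnr1 (-0.23), Ndnf (-0.59), Adarb2 (-0.33) and Lamp5 (-0.37).

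In Cic-S-KO cortex 0 of the 8 medial and 1 of the 10 caudal markers passed by edgeR (Lamp5, -0.35, SE 0.097, adjusted p = 0.0365). These counts stand beside 6.53% of all genes that passed there, and nothing is read from them. In the cerebellum all 4 general markers rose in both knockouts, Gad1 by 0.27 in each (adjusted p = 0.00407 for Cic-S-KO and 8.75e-04 for Cic-L-KO by edgeR). Among all genes 8.23% and 21.5% passed there, in the same order. Of the 8 cerebellar genes 0 rose, while 2 and 1 fell, with Gabra6 at -0.42 and -0.38. Of 8 caudal markers tested there 0 rose and 1, Calb2, fell in each (-0.33 and -0.39). Of 5 medial markers 2 and 1 rose and 0 fell. Of 6 excitatory cortical markers 2 rose and 1, Slc17a7, fell in each (-0.27 and -0.31). Nothing is read from these cerebellar counts. Of 10 genes of neuronal activity, 1 rose and 3 fell in Cic-L-KO cortex, a share near that of all genes, with Egr1 at -0.89 (adjusted p = 6.67e-04) and Vgf at 0.40 (adjusted p = 4.46e-06 by edgeR). The part of these cell markers and activity genes in the peptide differences was not tested.

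Genes whose pattern was most like that of Npy were found by Pearson correlation of log2 CPM over the 46 brain samples, each taken as the deviation from the WT mean of its region, among 15839 genes. The 5 highest were Tnc (r = 0.851), Syt6 (0.807), Col9a2 (0.778), Gm26703 (0.761) and Necab1 (0.755), given as a description with no test. Tnc, the extracellular matrix protein tenascin C, averaged 6.20 CPM in WT cortex, 5.88 in Cic-S-KO cortex and 8.30 in Cic-L-KO cortex, and 26.8, 30.5 and 10.7 CPM in the cerebellum. Syt6, a synaptotagmin, averaged 25.3, 27.9 and 38.2 CPM in the cortex and 10.1, 10.7 and 5.40 in the cerebellum in the same order. Among the set, Sst ranked 4776 with r = 0.156 and Cck 15248 with r = -0.458. Vip, Tac2 and Cort were not among the genes compared, since they did not pass the low-count filter in the cerebellum.

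In the lung at postnatal day 6 all genes of the set but Penk averaged under 1 CPM in every genotype. Penk ranged from 3.12 to 5.92 CPM in WT, from 5.46 to 8.41 in Cic-S-KO and from 5.57 to 11.4 in Cic-L-KO lung, with means of 4.56 ± 0.852, 7.23 ± 1.15 and 7.66 ± 2.09 (SD, n = 8 each). Both knockout groups overlapped with the upper WT samples, and no test was made in the lung.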

How the data were processed

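Polyadenylated RNA from flash-frozen tissue was sequenced, per the labels' protocols. The authors deposited raw read counts per gene for 50789 versioned Ensembl identifiers. STAR 2.7 and GRCm38.p6 are named in the submitters' processing notes, and the counting program and its strand setting are not given in the sources used here. Ignoring the version, 50639 identifiers matched GENCODE M21 (GRCm38), and all 10 genes of the set matched. The members, the gene lists and the tests were chosen with earlier results of these data known.

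Counts were fitted with edgeR 4.0.16 (R 4.3.3; filterByExpr, TMM, robust quasi-likelihood fit with genotype means). Each region was fitted on its 23 samples (16974 genes in cortex, 16643 in cerebellum), and contrasts between regions on all 46 (18032 genes). P-values were adjusted over all genes by Benjamini-Hochberg (threshold 0.05), and standard errors derived from the F statistic. The text names all 10 genes, though not their value in every contrast, and, of each other list, up to 4 genes with the smallest p past the threshold. Correlations used 100000 permutations of deviations from genotype means. Between 20440799 and 32548951 reads were counted per brain sample, so that 1 CPM was at least 20 reads. Of the fits, only that of Cic-L-KO against WT in the cortex was tried on simulated counts. Alternatives were DESeq2 1.42.0, RLE factors, other low-count filters, only the compared groups, a replicate block, covariates for Y-linked, striatal or brainstem genes and, added after the data were seen, an offset for GC content and libraries left out. Listed genes without a matching identifier were not analysed here.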

Additional observations from a re-analysis of the deposited data

Results flagged for a closer look

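Of 60 groups of values (10 genes in 6 brain groups), 8 had a single sample far from the others by Dixon's criterion. Chance would give about 3 if the values were normal and the groups independent. Several flags came from a single library, so no excess over chance is read from the count. All 8 were in the cerebellum, most of them at low levels. WT cerebellum replicate 1 was the highest of its group for Sst (10.8 CPM, the next sample at 4.98), Vip (0.748, next 0.106), Tac1 (3.52, next 1.38) and Crh (1.61, next 0.668). Its mean log2 CPM over the brainstem list was 0.45, the highest of the WT cerebellum samples. Crh stood apart in Cic-S-KO replicate 6 (2.72 CPM, next 0.501) and Pdyn in Cic-L-KO replicate 4 (3.47 CPM, next 0.847), which were the highest of their groups in the brainstem list at 1.15 and 1.64. Tac2 in Cic-S-KO replicate 4 (0.572 CPM, next 0.0993) and Cort in Cic-L-KO replicate 7 (0.422 CPM, next 0.175) rested on 16 and 13 reads. The part of brainstem RNA in these values was not tested.

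By the interaction test of edgeR, 3 knockout effects differed between cortex and cerebellum, leaving out Npy in Cic-L-KO, which chose the set and has no test here. They were the Cic-S-KO effect on Npy (-0.71, SE 0.142, adjusted p = 0.00311) and the Cic-L-KO effects on Cck (-0.37, SE 0.107, adjusted p = 0.00925) and Tac2 (-1.60, SE 0.491, adjusted p = 0.0139). Without the 4 libraries above 0 in the brainstem list the Tac2 value was -1.18 (adjusted p = 0.124).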

How the results depend on the processing

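Over the alternatives, 89 of 96 counts of genes called (Npy included) stayed within 1.5 times the reported count. Of 843 log2 fold changes, 800 were kept, by direction and side of the threshold. The Npy values given without a test were judged by another rule, namely direction and a shift smaller than the SD within groups. In Cic-S-KO cortex the count of 3 became 1 with the replicate block and 1 with the striatal covariate. In Cic-S-KO cerebellum the count of 1 became 0 without a low-count filter and 0 without the 4 libraries above 0 in the brainstem list. It was 2 without only the 3 above 0.5, all of them knockouts (WT replicate 1 was at 0.45). The count of 1 for the Cic-S-KO interaction became 2 without the 3, with Crh, and 2 without the 4, with Vip (-3.86, adjusted p = 0.0327). The genes called over the whole transcriptome in Cic-S-KO cortex went from 1108 to 627 with the block, 305 with the striatal covariate, 398 with the GC offset and 654 with only the compared groups.

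Direction changed for these values. With the striatal covariate, in Cic-S-KO cortex, they were Tac2 (-0.0212) and Penk (-0.24). With the Y-linked covariate they were Crh in Cic-S-KO cerebellum (0.0244) and Tac1 between the knockouts in cerebellum (0.45). The brainstem covariate gave Tac1 0.68 and Pdyn 0.27 between the knockouts. Without the 3 libraries, Sst (-0.21) and Tac1 (-0.40) in Cic-L-KO cerebellum, Tac1 between the knockouts (0.68), the Cic-S-KO interactions of Tac1 (0.28) and Crh (1.04, adjusted p = 0.0327) and the Cic-L-KO interactions of Sst (0.94), Tac1 (0.52) and Crh (0.0463) did so. Without the 4, Tac1 between the knockouts (0.68), the Cic-S-KO interaction of Crh (0.75) and the Cic-L-KO interaction of Sst (0.47) did. With the block the Cic-S-KO interaction of Crh was 0.18 and the Cic-L-KO interaction of Sst 0.0582.

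The labels do not say whether same-numbered cortex and cerebellum samples share an animal. Their correlations of deviations ran from -0.0311 to 0.215 (median 0.094), with 22 of 23 above 0 and 10 over 0.1, which neither shows nor excludes shared animals, and no replicate block was used in the reported values. Vip (adjusted p = 0.0577 by edgeR) and Cort (0.0760) missed the threshold in Cic-S-KO cortex with the block. The Cic-S-KO values of Npy ranged from -0.23 with the block to -0.28 with the GC offset in cortex. The low cerebellar levels limit Vip, Tac2 and Cort, which were not tested there.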
